A study of Homo sapiens with 12 samples.

Results

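MIR224 and MIR452 are a pair of miRNA precursors that lie side by side in an intron of GABRE, the gene of the epsilon subunit of the GABA-A receptor, an ion channel gated by the neurotransmitter GABA. The count table was searched for the names of their 4 mature strands, hsa-miR-224-5p, hsa-miR-224-3p, hsa-miR-452-5p, and hsa-miR-452-3p, and each was found once among 2588 mature miRNAs; the prefix hsa, for human, is left out below. Followed over time were the level of each strand, the ratio of the strands of a precursor, and the ratio of the neighbours. The cells were A549, an established human line of lung adenocarcinoma with an epithelial morphology, which TGF-β drives into epithelial-mesenchymal transition (EMT). Cells were treated with TGF-β for 0, 24, or 96 h, each with 2 small RNA libraries. The sample titles give 2 dates for each library, which are read here as 2 sequencing runs. The counts have 1 column per library and are taken to hold both runs, which the labels do not state. By the dates in the sample titles, the first runs share 1 date, while the second runs of 0 h replicate 2 and both 24 h libraries fall on another and those of 0 h replicate 1 and both 96 h libraries on a later one. The comparison of 24 with 96 h and the date of the second run therefore cannot be told apart. Within a date of the second run, 24 h is compared with 0 h replicate 2 alone and 96 h with 0 h replicate 1 alone. In the study's methods, cells were placed in serum-free medium before TGF-β1 was added, and all samples, those at 0 h included, carry the label of EMT induction. No untreated culture of 24 or 96 h was analysed here, so that time in culture and treatment cannot be told apart. Nothing in the labels says that the 2 libraries of a time point came from separate cultures, so that p-values measure only the spread between these libraries, which may be technical.

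A miRNA precursor is a short hairpin that is cut into a duplex of a 5p and a 3p strand, one of which is usually kept in an Argonaute protein while the other is degraded. The kept strand finds its targets mainly through its seed, the bases 2 to 8 from its 5′ end. Precursors within the intron of a protein-coding gene are commonly made from the transcript of that gene, so that neighbours in 1 intron can share a source but are processed one by one. miR-224-5p is known for high levels in hepatocellular carcinoma, and it has been reported to be induced by TGF-β1 in granulosa cells and to target SMAD4, a mediator of TGF-β signalling.

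On the GRCh37 assembly, with the annotation of GENCODE release 44, GABRE lies on the minus strand of chromosome X from 151121596 to 151143152. MIR224 spans 151127050 to 151127130 and MIR452 spans 151128100 to 151128184 on the same strand, with 969 bases between them. Both lie in intron 6 of the 8 introns of the canonical protein-coding transcript. MIR224 also overlaps exons of 2 other GABRE transcripts and MIR452 an exon of 1. The 4 mature sequences, from RefSeq (GRCh38.p14), were each found at 1 position within their GRCh37 precursor. They are shown because the strands of a precursor have different seeds and thus different potential targets, with the seed in capitals:
miR-224-5p: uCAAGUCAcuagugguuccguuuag
miR-224-3p: aAAAUGGUgcccuagugacuaca
miR-452-5p: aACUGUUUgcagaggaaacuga
miR-452-3p: cUCAUCUGcaaagaaguaagug
In GRCh37 these are chrX:151127100-151127124, chrX:151127056-151127078, chrX:151128150-151128171, and chrX:151128106-151128127, all on the minus strand. No 2 of the 4 strands share a seed. Some mature miRNAs have no sequence in the RefSeq table, so seed mates were searched only among those that do. In that table, miR-452-5p shares its seed with miR-4676-3p and miR-892c-3p. No other entry of that table has the seed of one of the other 3 strands. One of these seed mates is miR-4676-3p, which has the same capitals as miR-452-5p and other bases beyond them:
miR-4676-3p: cACUGUUUcaccacuggcucuu
It had between 1 and 4 counts in each library and miR-892c-3p had 0 in all 6, far below miR-452-5p.

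Total counts on mature miRNAs were between 2335185 and 5971197 in the 6 libraries, with the lowest totals at 0 h and the highest at 96 h. Levels are given in CPM, which are counts per 1000000 reads of a library scaled by edgeR's TMM factors, which ranged from 0.738 to 1.36. miR-21-5p alone took most of the reads in each library. The median over the 491 tested miRNAs of the log2-fold change from 0 to 96 h was −0.10 with TMM and −0.83 with total counts, and levels are therefore given on both scales where they differ in direction. Of 7 miRNAs of epithelial cells (miR-200a-3p, miR-200b-3p, miR-200c-3p, miR-141-3p, miR-429, miR-205-5p, and miR-375), all 7 had reads, although miR-205-5p had at most 3 counts in a library. Their summed level was 143 to 147 CPM at 0 h and 255 to 268 CPM at 96 h after TMM normalization, with miR-200a-3p and miR-200b-3p holding most of the reads and 3 of the 6 tested members below 0 on the log2 scale at 96 h. Relative to total counts the sum was 167 to 200 CPM at 0 h and 198 to 202 CPM at 96 h, and the ranges overlapped. A list of 5 blood cell miRNAs (miR-451a, miR-144-3p, miR-223-3p, miR-142-3p, and miR-142-5p) summed to 4.77 to 5.49 CPM at 0 h, 2.14 to 2.61 CPM at 24 h, and 1.13 to 1.36 CPM at 96 h, with miR-223-3p at 0 in every library. The part of either list in the results on the GABRE miRNAs was not tested.

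Of the 4 strands, miR-224-5p was the most abundant in each library, followed by miR-452-5p and miR-224-3p, while miR-452-3p was listed at 0 throughout. The 0 h libraries held 8481 and 7472 counts of miR-224-5p, the 24 h libraries 7009 and 9899, and the 96 h libraries 16073 and 11325. Its rank by count among mature miRNAs was 26 to 36. After TMM normalization its level was 3107 and 2230 CPM at 0 h, 2608 and 3028 CPM at 24 h, and 3647 and 3072 CPM at 96 h. The libraries at 0 h lay further apart than those at the other time points and overlapped both of them, while those at 96 h were above those at 24 h, as was the case for 30.3% of all tested miRNAs. The mean was 2668 ± 620 CPM (SD, n = 2 libraries) at 0 h, 2818 ± 297 CPM at 24 h, and 3359 ± 407 CPM at 96 h. In bulk RNA of this kind, a change in the number of cells that make a miRNA and a change in its amount per cell cannot be told apart.

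miR-452-5p, the main product of the neighbour, had 1644 and 2417 counts before treatment, 1302 and 1478 after 24 h, and 2230 and 1663 after 96 h. Its levels were 602 and 721 CPM at 0 h, 485 and 452 CPM at 24 h, and 506 and 451 CPM at 96 h after TMM normalization. Both 0 h libraries were thus above the 4 later ones, and those at 24 and 96 h overlapped each other. The means were 662 ± 84.1 CPM (SD, n = 2 libraries) at 0 h, 468 ± 22.9 CPM at 24 h, and 479 ± 38.8 CPM at 96 h. Libraries that did not overlap were common in these data. Of all tested miRNAs, 28.5% were lower at 24 h and 38.7% lower at 96 h than at 0 h without overlap, a frequent separation beside which that of miR-452-5p does not stand out.

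miR-224-3p, the other strand of MIR224, was much lower. It had 62 and 82 counts before treatment, 60 and 69 after 24 h, and 94 and 86 after 96 h. The corresponding levels were 22.7 and 24.5 CPM, 22.3 and 21.1 CPM, and 21.3 and 23.3 CPM after TMM normalization. The 0 h libraries were above those at 24 h by a small margin, and 28.5% of all tested miRNAs were lower at 24 h without overlap. The 96 h libraries overlapped both other time points. The mean was 23.6 ± 1.24 CPM (SD, n = 2 libraries) at 0 h, 21.7 ± 0.864 CPM at 24 h, and 22.3 ± 1.41 CPM at 96 h.

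**Figure D1:**
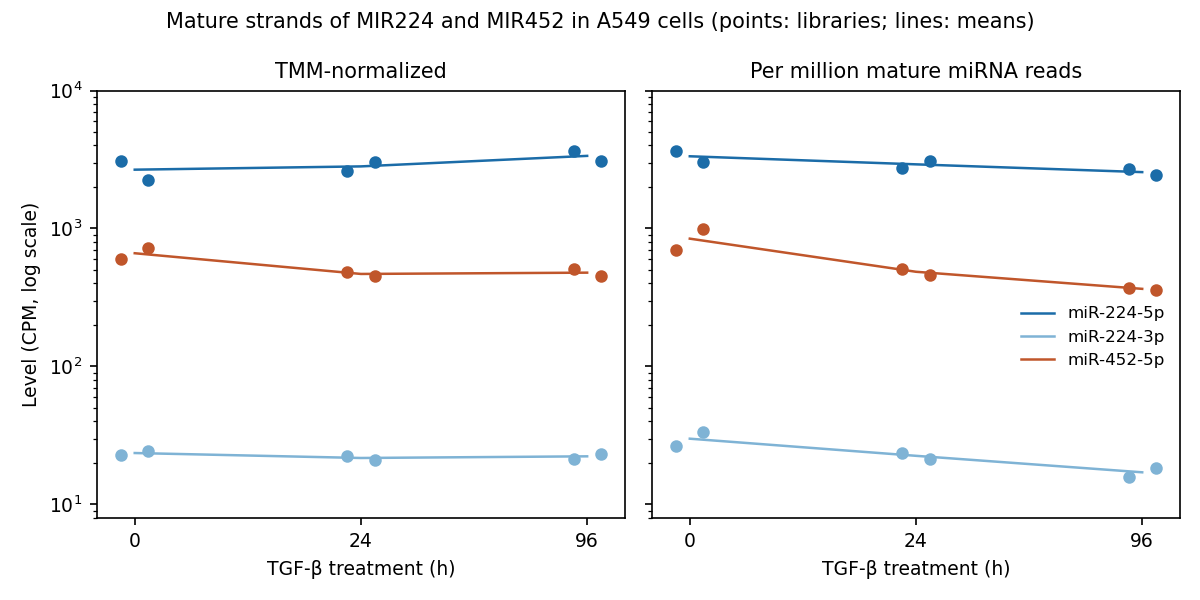
Level of miR-224-5p, miR-452-5p, and miR-224-3p (CPM, log axis) after 0, 24, and 96 h with TGF-β, with TMM normalization on the left and relative to the total of mature miRNA reads on the right. Points are libraries and lines join the means; the time points are evenly spaced. miR-224-5p is slightly higher at 96 h than at 0 h on the left (3359 and 2668 CPM) and lower on the right (2561 and 3337 CPM), while miR-452-5p is lower at 96 h on both.

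The question of whether the GABRE miRNAs change during EMT was addressed with edgeR's quasi-likelihood test over all tested miRNAs, with Benjamini-Hochberg adjustment. Calls needed an adjusted p below 0.05 together with a log2-fold change beyond 1 in either direction. Of the 4 strands, 3 passed the expression filter, and 0 of these 3 were called at 24 h, at 96 h, or between 24 and 96 h. In DESeq2, 0 of 3 were called as well, beside 14, 112, and 27 of all 491 tested in these comparisons. At an unadjusted p under 0.05 in edgeR, miR-452-5p alone was counted at 24 and at 96 h, and none of the 3 between 24 and 96 h, beside 28.3%, 55.8%, and 31.0% of all tested miRNAs in these comparisons. Over all tested miRNAs, 3.46% were called at 24 h, 25.9% at 96 h, and 5.91% between 24 and 96 h. The comparisons at 24 and 96 h use the same 0 h libraries and are not independent.

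The clearest difference among the members was that of miR-452-5p. Its log2-fold change was −0.47 at 96 h (standard error 0.15, adjusted p = 0.0290 in edgeR's quasi-likelihood test), which did not reach the fold-change threshold. By an adjusted p below 0.05 alone, 21.2% of all tested miRNAs were lower at 96 h. The value at 24 h was −0.50, with a standard error of 0.15 and an adjusted p of 0.0677, and that between 24 and 96 h was 0.031, with a standard error of 0.15 and an adjusted p of 0.916, both in edgeR. With total counts the value at 24 h was −0.80 (adjusted p = 0.0272 in edgeR), and over the 17 alternatives it ranged from −0.80 to −0.35, with adjusted p between 0.0148 and 0.316 and below 0.05 in 4 of them. The value at 96 h was below 0 under all 17 alternatives, from −1.21 to −0.32, with adjusted p between 0.000945 and 0.239 and below 0.05 in 7 of them. The setting without a minimum fold change is among the 7 and repeats the main fit, since it changes only the calling rule. The adjusted p was 0.0611 with DESeq2's size factors within edgeR, 0.0928 in DESeq2, 0.112 without the expression filter, and 0.0810 with only the 0 and 96 h libraries. It was −0.32 without 0 h replicate 2 (adjusted p = 0.121 in edgeR) and −0.35 without 96 h replicate 2 (adjusted p = 0.239 in edgeR), and the adjusted p was under 0.05 without 0 h replicate 1 and between 0.0817 and 0.112 without each of the other 3 libraries. Where a library is left out, the lone library of its time point is assumed to vary like the others, and the spread within that time point no longer enters the test, which holds for each such value below. Within a date of the second run, miR-452-5p was at −0.59 at 24 h (adjusted p = 0.0148 in edgeR without 0 h replicate 1) and at −0.32 at 96 h.

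For miR-224-5p the log2-fold change was 0.08 at 24 h (standard error 0.18, adjusted p = 0.790 in edgeR's quasi-likelihood test) and 0.33 at 96 h (standard error 0.18, adjusted p = 0.156 in the same test). Without 0 h replicate 1, which removes the widest spread of a time point from the test, the value at 96 h was 0.63 (adjusted p = 0.00337 in edgeR). Within a date of the second run it was 0.38 at 24 h (adjusted p = 0.120 in edgeR) and 0.12 at 96 h (adjusted p = 0.575 in edgeR), and the range at 96 h over its 17 alternatives was −0.38 to 0.63, with adjusted p between 0.00337 and 0.944. For miR-224-3p the log2-fold change was −0.12 at 24 h and −0.083 at 96 h (standard error 0.22 in both), with adjusted p of 0.731 and 0.780 in edgeR. These errors leave room for changes of either sign in both strands of MIR224. Over its 17 alternatives, miR-224-3p ranged from −0.93 to 0.0092 at 96 h. It was −0.81 with total counts (adjusted p = 0.0122 in edgeR).

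On the scale of total counts, which asks for the share of all mature miRNA reads, each of these strands took a smaller share at 96 h than at 0 h. miR-224-5p had 3632 and 3042 CPM at 0 h, 2753 and 3080 CPM at 24 h, and 2692 and 2431 CPM at 96 h. Both 96 h libraries were below all others, although its log2-fold change of −0.38 (adjusted p = 0.0409, edgeR with total counts) was less negative than the median of −0.83 over all tested miRNAs. miR-452-5p had 704 and 984 CPM at 0 h, 511 and 460 CPM at 24 h, and 373 and 357 CPM at 96 h, with no overlap between any of the time points. On this scale 43.6% of all tested miRNAs were lower without overlap at 24 h than at 0 h, 66.8% at 96 h than at 0 h, and 63.1% at 96 h than at 24 h. The change of miR-452-5p from 0 to 96 h was −1.21 on the log2 scale, with a standard error of 0.19 and an adjusted p of 0.000945 in edgeR with total counts, past both thresholds. With this scaling 43.8% of all tested miRNAs were called at 96 h and 39.1% were called lower, so that the call rests on the choice of scale. miR-224-3p had 26.6 and 33.4 CPM at 0 h, 23.6 and 21.5 CPM at 24 h, and 15.7 and 18.5 CPM at 96 h. These time points did not overlap either, and its log2-fold change of −0.81 from 0 to 96 h was close to the median.

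**Figure D2:**
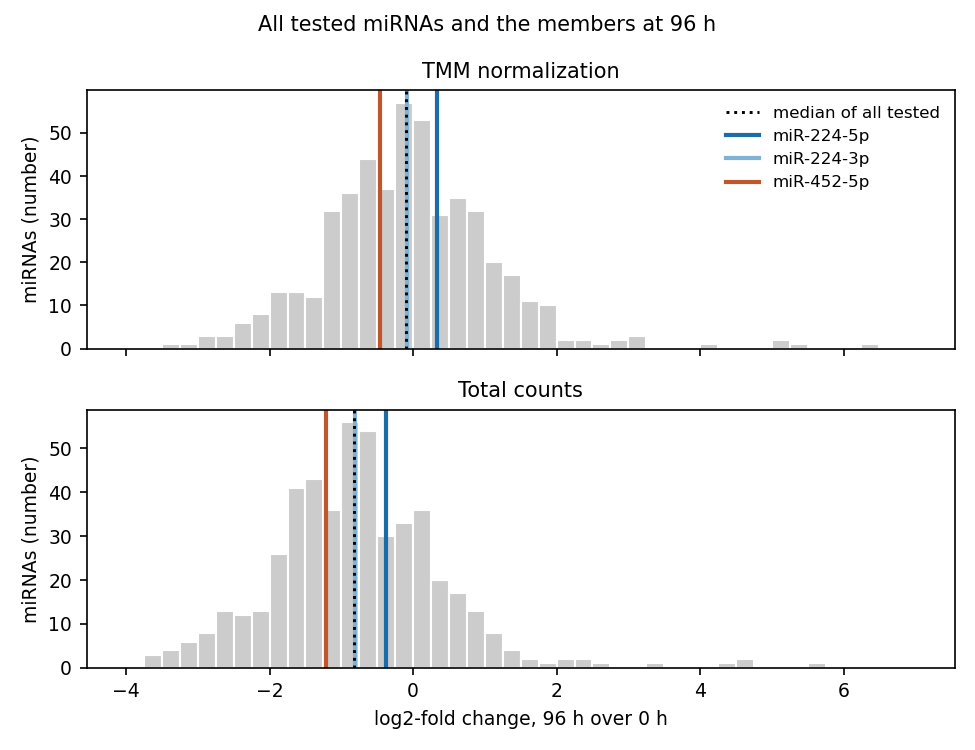
Number of miRNAs (vertical axis) by log2-fold change of 96 h over 0 h (horizontal axis), for all 491 tested miRNAs with TMM (top) and total counts (bottom). Coloured lines mark miR-224-5p, miR-224-3p, and miR-452-5p, and the dotted line marks the median, which moves from −0.10 to −0.83 between the panels; miR-224-5p lies above it and miR-452-5p below it in both.

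A ratio of strands within a library does not depend on the scaling. In MIR224 the 5p strand outnumbered the 3p strand in each library. The ratio of miR-224-5p to miR-224-3p was 137 and 91.1 before treatment, 117 and 143 after 24 h, and 171 and 132 after 96 h. The time points overlapped, with the lowest ratio in 0 h replicate 2 and the highest in 96 h replicate 1. Its means were 114 ± 32.3 at 0 h, 130 ± 18.8 at 24 h, and 151 ± 27.8 at 96 h (SD over 2 libraries). As a share of the reads of the precursor, miR-224-3p made up 0.726% (95% Wilson confidence interval 0.567% to 0.929%) in 0 h replicate 1 and 1.09% (0.875% to 1.35%) in 0 h replicate 2, against 0.581% (0.475% to 0.711%) in 96 h replicate 1 and 0.754% (0.611% to 0.930%) in 96 h replicate 2. These intervals hold for counting error alone, because molecules were not labelled with identifiers and several reads can stem from 1 molecule.

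The change of the strand ratio was tested with edgeR in a model of strand and time over the 108 pairs of strands in which both passed the expression filter. The log2 ratio of MIR224 was 0.22 higher at 24 h than at 0 h (adjusted p = 0.895), 0.44 higher at 96 h than at 0 h (adjusted p = 0.378), and 0.21 higher at 96 h than at 24 h (adjusted p = 0.842), with a standard error of 0.30 in each edgeR comparison. None of these differences passed the test against the spread between libraries. Over all 108 pairs, 0.0% were called at 24 h, 0.926% at 96 h, and 0.0% between 24 and 96 h, and 6, 24, and 10 pairs had an unadjusted p under 0.05. The median absolute difference over the pairs was 0.54 at 96 h, larger than that of MIR224. Without 0 h replicate 2, the values were −0.076 at 24 h and 0.14 at 96 h, and without 0 h replicate 1 they were 0.51 and 0.72. Without 96 h replicate 1 those at 96 h were 0.24 against 0 h and 0.022 against 24 h. The latter was 0.40 with 96 h replicate 2 left out, and 0.066 or 0.36 with 24 h replicate 1 or 2 left out. In the last pair of fits 24 h exceeded 0 h by 0.37 and 0.072. Adjusted p over these was 0.111 or more in edgeR. Within a date of the second run, the differences were 0.51 at 24 h and 0.14 at 96 h (adjusted p = 0.563 and 0.857 in edgeR).

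In MIR452 no read of the 3p strand was counted. miR-452-3p had 0 reads in all 6 libraries, against 10734 reads of miR-452-5p in total. Counting 0 as up to 3 reads, the limit on the share of the 3p strand was between 0.124% of the precursor's reads in 0 h replicate 2 and 0.230% in 24 h replicate 1. In each library this limit was below the lower bound of the interval for miR-224-3p, the lowest of which was 0.475%. If reads of miR-452-3p were assigned to that name at all, which the sources used here do not show, the ratio of strands in MIR452 was at least 434 to 806 within a library, with the limit of 3 reads taken per library. No change over time could be measured. With the limit of 3 reads taken once over all libraries together, 0 of 10734 reads allows a share of up to 0.0279%. These limits hold for counting error alone. The limit of 3 reads per library corresponds to 0.681 to 1.12 CPM after TMM normalization, so that 0 counts allow a level of up to these values.

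**Figure D3:**
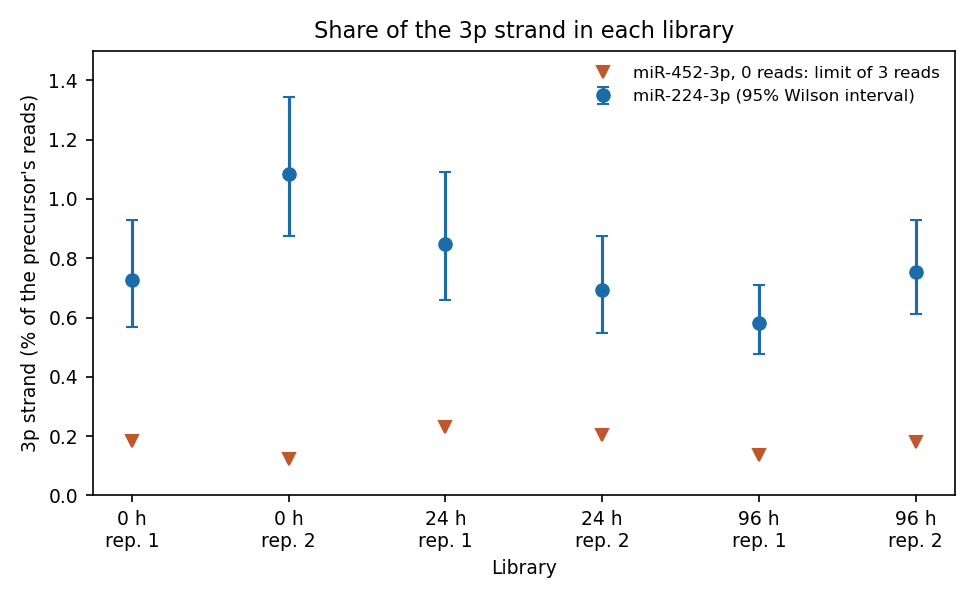
Share of the 3p strand among the reads of its precursor (percent, vertical axis) in each of the 6 libraries (horizontal axis). Circles are miR-224-3p with 95% Wilson intervals, and triangles are the limit that 0 reads of miR-452-3p allow; the circles lie between 0.581% and 1.09% and the triangles at or below 0.230%.

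Among all precursors, the share of the less abundant strand was near the middle for MIR224 and at the lowest end for MIR452. In 128 pairs of strands named 5p and 3p, at least 1 strand had 1000 counts or more over the 6 libraries. The 5p strand was the more abundant in 71 of the 128, as it was in both GABRE miRNAs. The less abundant strand held a median of 1.02% of the reads, and the 0.746% of miR-224-3p was at rank 54 from the lowest. The less abundant strand was listed at 0 in 5 of the 128, which are miR-130a-5p, miR-186-3p, miR-215-3p, miR-328-5p, and miR-452-3p, named here after their values had been seen. The next lowest was let-7g-3p, with 0.0124% of the reads of its precursor. The reference set of miRNAs behind the counts is not given in the sources used here, and a strand listed at 0 says only that no read was assigned to that name.

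**Figure D4:**
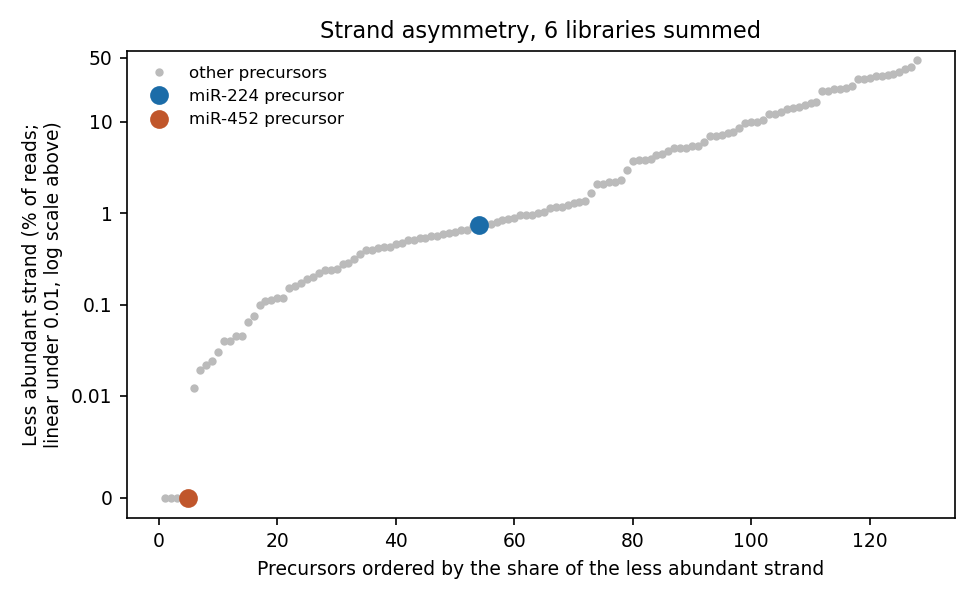
Share of the less abundant strand (percent of both strands, 6 libraries summed; log scale above 0.01 and linear below) for 128 precursors in order of that share. Both GABRE precursors are marked; miR-224 lies at 0.746%, near the median of 1.02%, and miR-452 is among the 5 precursors at 0.

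The ratio of the neighbours, miR-224-5p over miR-452-5p, is free of the scaling as well and addresses whether the 2 products of 1 intron kept their proportion. It was 5.16 and 3.09 before treatment, 5.38 and 6.70 after 24 h, and 7.21 and 6.81 after 96 h. All later libraries were thus above both 0 h libraries, and both 96 h libraries were above both 24 h libraries. The margins were in part within the counting error, since the 95% interval of 0 h replicate 1 met that of 24 h replicate 1 (5.07 to 5.71), and that of 24 h replicate 2 (6.34 to 7.07) met those of both 96 h libraries (6.90 to 7.53 and 6.47 to 7.17). Its means were 4.13 ± 1.46 at 0 h, 6.04 ± 0.929 at 24 h, and 7.01 ± 0.281 at 96 h (SD over 2 libraries). The 0 h libraries were the least alike. Their counting intervals of 4.89 to 5.44 and 2.95 to 3.24 (95%, from the logarithm of the ratio) did not meet, so that the gap between them exceeds the counting error. The ratio is one of reads and not of molecules, since miRNAs differ in how well they are ligated and amplified.

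The log2 ratio of the neighbours was 0.81 higher at 96 h than at 0 h, which is 1.75-fold. The exact two-sided permutation test gave p = 0.333 for all 3 comparisons, the smallest value that 2 libraries against 2 allow. The ratio was also tested with edgeR over 67 pairs of miRNAs from neighbouring precursors on 1 strand within 10000 bases, a test chosen after the values had been seen. The difference from 0 h was 0.59 at 24 h (adjusted p = 0.629) and 0.81 at 96 h (adjusted p = 0.139), and that between 24 and 96 h was 0.22 (adjusted p = 0.737), with a standard error of 0.26 in each edgeR comparison, and none passed the threshold. Of the 67 pairs, 0.0%, 1.49%, and 0.0% were called in these comparisons, and 5, 12, and 7 had an unadjusted p under 0.05. MIR224 and MIR452 were among these at 24 h (unadjusted p = 0.0418 in edgeR) and at 96 h (unadjusted p = 0.00831 in edgeR), and not between 24 and 96 h. By absolute difference, they ranked 16 at 24 h, 18 at 96 h, and 46 between 24 and 96 h among the 67. Time points without overlap were frequent, in 32.8% of the pairs for 0 and 24 h, in 47.8% for 0 and 96 h, and in 58.2% for 24 and 96 h.

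The size of this difference turned on the 0 h libraries. Without 0 h replicate 1 the log2 ratio was 1.18 higher at 96 h (adjusted p = 0.000112 in edgeR over the pairs) and 0.96 higher at 24 h (adjusted p = 0.00897 in the same test). In both, 0 h is a single library and the gap between the 0 h libraries is out of the test. Without 0 h replicate 2 the differences were 0.44 and 0.22 (adjusted p = 0.325 and 0.680 in the same test). Within a date of the second run, these are 0.96 at 24 h and 0.44 at 96 h. Between 24 and 96 h the difference was 0.065 or 0.38 with 24 h replicate 1 or 2 left out (adjusted p = 0.972 and 0.786 in the same test). Over its 8 alternatives the adjusted p at 96 h ranged from 0.000112 to 0.671, and each of the 8 differences was above 0.

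**Figure D5:**
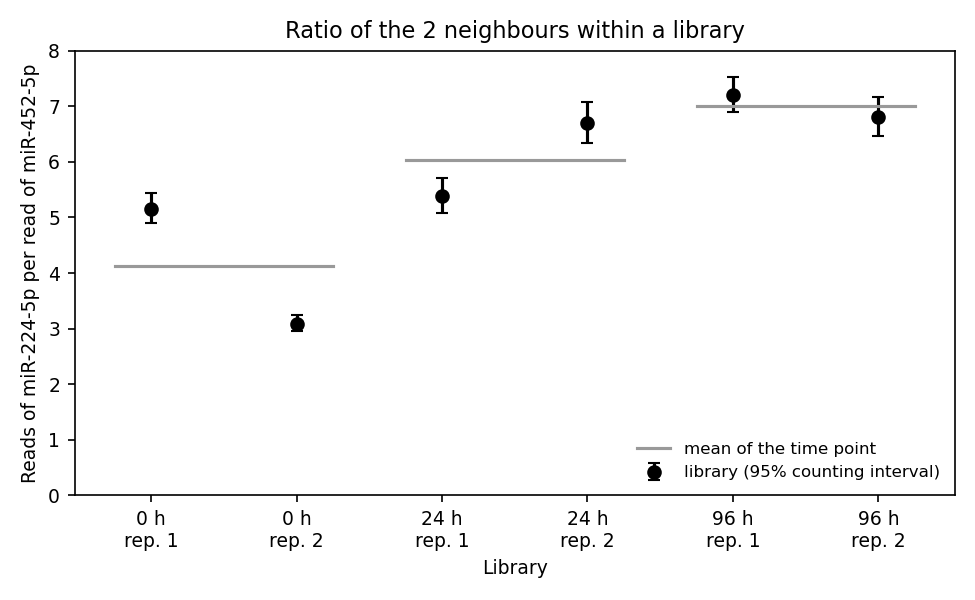
Reads of miR-224-5p per read of miR-452-5p (vertical axis, from 0) in each of the 6 libraries (horizontal axis), with 95% counting intervals and the mean of each time point as a grey line. The ratio lies at 5.16 and 3.09 at 0 h and at 7.21 and 6.81 at 96 h.

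The course of the 3 measured strands over the 6 libraries was compared by Pearson's r on log2 CPM, as a description. All r share the same 6 libraries, their depths, and the scaling. After TMM normalization, r was −0.57 between miR-224-5p and miR-452-5p and −0.72 between miR-224-5p and miR-224-3p, while it was 0.67 between miR-452-5p and miR-224-3p. Among the 321 miRNAs whose mean was 10 CPM or more, miR-452-5p stood at rank 249 and miR-224-3p at rank 282 in likeness to miR-224-5p. On total counts these ranks were 124 and 153, and the same r were 0.68, 0.61, and 0.96, so that the sign of both relations of miR-224-5p depends on the scale, and the median r of miR-224-5p with all 321 rose from 0.21 to 0.58. Most like miR-224-5p were miR-218-5p, miR-424-3p, miR-16-2-3p, miR-132-5p, and miR-27a-3p, with r from 0.95 to 0.97 after TMM normalization. Most like miR-452-5p were miR-331-3p, miR-378a-3p, miR-378d, miR-1307-3p, and miR-671-5p, with r from 0.93 to 0.97.

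Other miRNAs were examined by list, to place the GABRE miRNAs. A second group of miRNAs in a GABA-A receptor gene, miR-105 and miR-767 of GABRA3, also lies on chromosome X. The nearest tested precursor is that of miR-105, 432506 bases away. Its main strand miR-105-5p had 130 and 148 counts before treatment, 91 and 98 after 24 h, and 136 and 107 after 96 h. Its change from 0 to 96 h was −0.61 on the log2 scale (adjusted p = 0.0283 in edgeR), short of the fold-change threshold, and −1.34 with total counts (adjusted p = 0.000677 in edgeR), past it. Of this list 3 of 4 were tested and 0 were called by edgeR or by DESeq2 at any time, beside 3.46% at 24 h, 25.9% at 96 h, and 5.91% between these time points of all tested miRNAs by edgeR. At an unadjusted p under 0.05 in edgeR there was 1 at 24 h, 1 at 96 h, and 0 between these time points, beside 28.3%, 55.8%, and 31.0% of all. With total counts 1 of the 3, miR-105-5p, was called lower at 96 h, beside 39.1% of all. On the other side the nearest tested precursor was that of miR-320d, 11.1 Mb away, with a log2-fold change of 0.079.

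Of the other miRNAs whose precursors lie only on chromosome X, 39 were tested. At 96 h 2 of these were called higher and 4 lower, beside 12.6% higher and 13.2% lower of all tested miRNAs. With total counts 0 were called higher, beside 23 of all 491 tested, and 17 lower, beside 39.1% of all. Their log2-fold changes had a median of −0.27, beside −0.10 over all, and of −0.997 with total counts, beside −0.83 over all. At 24 h 0 of the 39 were called by edgeR or by DESeq2, beside 17 and 14 of all 491 tested, with 12 at an unadjusted p under 0.05, which is to be read against the 28.3% of all tested miRNAs. In a list of 14 miRNAs that published work ties to induction by TGF-β and SMAD signalling, 12 were tested, and 2 were called higher and 0 lower at 96 h, while DESeq2 called 4, beside 112 of all 491 tested, and 10 had an unadjusted p under 0.05 in edgeR, beside 55.8% of all. The median of the 12 was 0.80 on the log2 scale with TMM and 0.077 with total counts. The 2 were miR-143-3p, at 6.32, and miR-145-5p of the same locus, which had 1 and 0 counts at 0 h and 29 and 25 at 96 h. miR-21-5p, the most abundant miRNA in these cells, was at 0.97 with TMM and at 0.25 with total counts. The value of miR-224-5p, 0.33 with TMM and −0.38 with total counts, lay below the median of that list and above that of all tested miRNAs on both scales, and the list was chosen with results of these libraries known.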

How the data were processed

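Small RNA of A549 cells was sequenced on an Illumina instrument. The authors counted reads with miRDeep2 and deposited raw counts per mature miRNA and precursor, with 1 column per library, taken here to hold both runs. The submitters' processing notes name FastQC and hg19. The authors also deposited normalized values, a signal scaled between libraries. There, 1 column repeats the name of another and was left out, so that 96 h replicate 2 has no normalized value. Where a miRNA had several precursor entries, the one with the highest total was used (2822 entries, 2588 names). A total of 2335185 to 5971197 counts per library makes 1 read worth 0.167 to 0.428 CPM.

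Tests on counts used edgeR 4.0.16 in R 4.3.3, with TMM, filterByExpr at a minimum count of 10, and a quasi-likelihood fit of the time point to all 6 libraries. The standard error is the absolute log2-fold change divided by the square root of F. Strand ratios were tested with each precursor in a row and each strand of a library in a column, with terms for library, strand, and strand by time point, and neighbour ratios in the same way. On simulated data for 96 h against 0 h, 98.0% of miRNAs changed by 2 on the log2 scale were recovered (470.2 tested on average). Of pairs changed by 1.5, 76.7% of strand pairs (108 tested) and 68.2% of neighbour pairs (67 tested) were recovered. In these 3 simulations 1.56%, 3.15%, and 2.58% of the calls were false. Smaller changes, like those measured for the members and their ratios, were not simulated. The alternatives were other scalings, filters, and thresholds, DESeq2 1.42.0, limma 3.58.1 on log2(normalized value + 1) or on the log2 ratio of strands, the replicate number as a block, fewer libraries, and sums over precursors. Intervals and figures were made in Python 3.11.15 with scipy 1.17.1 and matplotlib 3.10.9.

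The named miRNAs are the 4 strands, the 5 most like miR-224-5p and miR-452-5p, the nearest tested neighbours on chromosome X, the lists of miRNAs in GABA-A receptor genes, on chromosome X, and tied to TGF-β, and those that share a seed; marker lists were added. Members and lists were chosen with earlier results of these data known.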

Additional observations from a re-analysis of the deposited data

How the results depend on the processing

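The scaling changed the direction or size of several log2-fold changes. With TMM, the log2-fold changes between 24 and 96 h were 0.25 for miR-224-5p, 0.040 for miR-224-3p, and 0.031 for miR-452-5p. With total counts, the log2-fold changes of miR-224-5p at 24 h, at 96 h, and between 24 and 96 h were −0.19, −0.38, and −0.19. Those between 24 and 96 h were −0.40 for miR-224-3p and −0.41 for miR-452-5p, and that of miR-452-5p at 96 h was −1.21. Mean levels at 0 and 96 h were then 3337 and 2561 CPM for miR-224-5p, 30.0 and 17.1 CPM for miR-224-3p, and 844 and 365 CPM for miR-452-5p, and 33, 215, and 72 miRNAs were called in the 3 comparisons (17, 127, and 29 with TMM), of which 28, 192, and 58 were lower. With total counts without miR-21-5p, miR-224-5p was at −0.094 at 24 h and −0.014 at 96 h, miR-224-3p and miR-452-5p were at −0.13 and −0.14 between 24 and 96 h, and 26 miRNAs were called at 24 h. With limma on the authors' normalized values, miR-224-5p was at −0.17, −0.26, and −0.088. Between 24 and 96 h, miR-224-3p and miR-452-5p were at −0.50 and −0.33 in that fit. There miR-452-5p was at −1.12 at 96 h, with 1 library at 96 h that is assumed to vary like those of the other time points. A mean of at least 10 CPM gave −0.020 for miR-224-3p and −0.029 for miR-452-5p between 24 and 96 h, and 17 calls. Calls between 24 and 96 h numbered 46 without the expression filter and 44 with only the libraries compared. Without a minimum fold change, 35, 216, and 62 miRNAs were called, among them miR-452-5p at 96 h with its −0.47. Leaving out each library in turn gave 4 to 36 calls at 24 h and 9 to 46 between 24 and 96 h, log2-fold changes of −0.13 to 0.38 for miR-224-5p at 24 h and −0.11 to 0.0092 for miR-224-3p at 96 h, strand ratio differences of −0.076 to 0.51 at 24 h, and neighbour ratio differences of 0.22 to 0.96 at 24 h and 0.44 to 1.18 at 96 h; the cause was not tested. Deviations of same-numbered libraries correlated at −0.30 for 0 and 24 h, 0.31 for 0 and 96 h, and −0.18 for 24 and 96 h. These had no common sign, and whether the replicate number marks a pair was not tested. With the replicate number as a block, miR-452-5p at 96 h was at −0.47 (adjusted p = 0.0504 in edgeR), and no call on the strands or ratios changed. The depth limits miR-224-3p, with 60 to 94 counts. For miR-452-3p, with 0 counts, whether depth or the assignment of reads sets the limit was not tested.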

Other observations

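The first base of a strand is known to influence how well Argonaute holds it, with U and A held best. In the RefSeq sequences, miR-224-5p begins with U and miR-224-3p with A, while miR-452-5p begins with A and miR-452-3p with C. The first bases of the reads themselves were not examined. Of the more abundant strands of the 128 precursors with at least 1000 counts on a strand, 116 had a RefSeq sequence, of which 65.5% began with U and 19.0% with A. Of the less abundant strands, 111 of which had a sequence beside that of their partner, 41.4% began with C and 28.8% with A. Thus miR-224-5p and miR-452-3p carry the most frequent first base of their class, whereas the A of miR-452-5p is less frequent among the more abundant strands than among the less abundant ones. The hairpins of MIR224 and MIR452 have 81 and 85 bases, and their minimum free energies by RNAfold were −37.3 and −41.3 kcal/mol. These are descriptions, and no test was made of a relation to the strand ratios.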
